A study of Mus musculus with 4 samples.

Results

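The interferon-stimulated genes of the right ventricle (RV) were described here as a module of 47 named genes, which were matched by gene symbol to the gene rows of the deposited matrices. Of these, 46 were found among 27998 gene rows, and Mx2 is not analysed here. The list was chosen from earlier results of these same libraries, in which its genes differed between the groups, so every difference between RV volume overload (RVVO) and sham below is a description of the members and supports nothing about them. The members were the receptor chains Ifnar1 and Ifnar2, 5 transcription factors and 3 genes of the Isg15 system. There were 4 genes of the oligoadenylate synthetase family, called oligoadenylate synthetases below. The list also held 6 sensors of RNA or DNA, 8 antiviral effectors, 3 guanylate-binding proteins and 3 genes of antigen processing. The rest were 6 genes of the TRIM and PARP families or other ubiquitin ligases, and 6 genes with other roles. Of the 46 members, 19 were set apart as strongly inducible (the Ifit, Oas and Oasl genes, Ifi44, Irf7, Herc6, Isg15, Phf11d, Usp18, Rsad2, Dhx58, Xaf1, Cmpk2, Rtp4 and Zbp1).

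RV tissue was taken from wild-type C57/BL6J mice on postnatal day 21, and its nuclei were profiled with droplet-based 3′ RNA-seq. The sham group (2 libraries) and the RVVO group (2 libraries) had both been operated on postnatal day 7. The RVVO mice received a fistula between the abdominal aorta and the inferior vena cava, which returns arterial blood to the right heart, and the sham mice went through the same surgery without the puncture. The sources used here do not say whether a library came from 1 mouse or a pool, so the spread between libraries may be partly technical. Type I interferons bind Ifnar1 and Ifnar2 on nearly every cell, and the kinases at this receptor activate factors such as Stat2, which joins Irf9 and enters the nucleus. This complex binds the interferon-stimulated response element (ISRE) in the promoters of antiviral genes, while interferon gamma acts at another element and through Irf1. In the heart, endothelial cells and macrophages are known to hold a low level of these transcripts without infection.

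The promoters of 37 of the 46 members were matched in the RefSeq table for GRCm38.p6, with 300 bases for each annotated start, of which 250 lay before it. The core of the ISRE, GAAANNGAAA on either strand with overlapping matches counted, was held by 15 of 45 member promoters (33.3%) and by 1131 of 32851 promoters of all genes (3.44%). The gamma-activated site TTCNNNGAA was held by 24.4% of member promoters and 8.3% of all promoters. A match is a description of the letters and not of binding. The stretches below lie before the start of transcription, are read in the direction of each gene and are shown because they hold the cores of members whose values open the results, with the bases of the cores in capitals. On the other strand the core reads as TTTC, 2 bases, TTTC.
Isg15 at chr4:156200853-156200918, minus strand: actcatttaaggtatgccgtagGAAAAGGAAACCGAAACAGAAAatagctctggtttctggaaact
Bst2 at chr8:71537565-71537624, minus strand: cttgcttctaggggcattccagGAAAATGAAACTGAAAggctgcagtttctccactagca
Ifit1 at chr19:34640763-34640835, plus strand: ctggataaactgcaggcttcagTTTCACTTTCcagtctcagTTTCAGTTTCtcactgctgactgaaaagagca
Ifit3 at chr19:34583351-34583438, plus strand: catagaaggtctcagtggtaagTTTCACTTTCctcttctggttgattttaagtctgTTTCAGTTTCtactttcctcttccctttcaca
Oas1a at chr5:120907526-120907567, minus strand: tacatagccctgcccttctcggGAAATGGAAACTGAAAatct
Rsad2 at chr12:26456541-26456594, minus strand: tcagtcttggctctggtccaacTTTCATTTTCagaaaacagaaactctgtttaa
Gbp2 at chr3:142620582-142620635, plus strand: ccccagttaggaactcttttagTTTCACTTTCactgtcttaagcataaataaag
Gbp3 at chr3:142559977-142560036, plus strand: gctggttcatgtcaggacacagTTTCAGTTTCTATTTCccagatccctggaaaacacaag
Gbp7 at chr3:142530261-142530314, plus strand: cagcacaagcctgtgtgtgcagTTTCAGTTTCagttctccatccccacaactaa
Stat2 at chr10:128270254-128270307, plus strand: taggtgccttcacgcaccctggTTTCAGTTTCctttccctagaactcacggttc
Trim30a at chr7:104465198-104465251, minus strand: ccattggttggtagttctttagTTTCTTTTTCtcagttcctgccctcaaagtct
Isg15 held 3 overlapping cores, Bst2, Gbp3, Ifit1, Ifit3 and Oas1a held 2 each, and the other stretches held 1. The receptor genes held no core in their windows, as did most members with a matched promoter. Each held 1 gamma-activated site, which begins at -5 from the start in Ifnar1 and at -214 in Ifnar2. The last 64 bases before their starts are given for comparison.
Ifnar1 at chr16:91485151-91485214, plus strand: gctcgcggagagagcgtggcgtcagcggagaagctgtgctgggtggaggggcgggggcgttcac
Ifnar2 at chr16:91372719-91372782, plus strand: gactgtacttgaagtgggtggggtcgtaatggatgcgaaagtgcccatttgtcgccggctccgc
Of the members with a matched promoter, 14 held a core anywhere in the window and 23 did not. Their median log2 fold changes in endothelial nuclei, RVVO against sham, were -1.65 and -1.31. The values ran from -2.38 to -0.85 with a core and from -2.19 to -0.02 without, so the sets overlapped. The sets were not tested against each other.

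The 46 members lay on 15 autosomes. In GRCm38.p6, 20 of them stood in 8 groups of neighbours less than 200 kb apart. Gbp7, Gbp3 and Gbp2 lay within 108 kb of chromosome 3, Ifit2, Ifit3 and Ifit1 within 99.3 kb of chromosome 19, Parp14, Dtx3l and Parp9 within 139.7 kb of chromosome 16, and Psmb9, Tap1 and Psmb8 within 19.5 kb of chromosome 17. The pairs were Oasl2 with Oasl1 and Oas2 with Oas1a on chromosome 5, Rsad2 with Cmpk2 on chromosome 12, and Ifnar2 with Ifnar1 on chromosome 16. Several members have related genes that share sequence with them, and the authors' counting could split or drop reads between these. The values of Ifit1, Ifit3, Oas1a, Oasl1, Oasl2, Gbp2, Gbp3, Gbp7, Trim30a and Sp100 are therefore uncertain.

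After filtering, 43180 nuclei of 53090 barcodes were kept, with 11424 and 12813 in the sham libraries and 7676 and 11267 in the RVVO libraries. The deposited barcodes had a median of 2311 and 2262 unique molecular identifiers (UMIs) in sham and 4705 and 3378 in RVVO, and their median mitochondrial share was 1.47% and 1.38% against 0.654% and 0.535%. Any pair of libraries shared 28 to 70 barcodes. Both sham libraries carried Xist (1475 and 1486 UMI counts scaled to the same total in each library, CPM) and both RVVO libraries carried the Y-linked gene Uty (322 and 317 CPM), each with 0.825 CPM or less in the other group. Sex and surgery therefore cannot be told apart in any value below. Nuclei were assigned to a lineage by the raw UMIs of its markers. The summed markers of each major lineage were compared with those in the next highest lineage of the same library. In the library where it was lowest, this ratio was 2.03 to 22.7 over the lineages. The same markers made the assignment, so these ratios do not check it.

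Values are given from here on in the order sham 1, sham 2, RVVO 1 and RVVO 2. Levels are CPM, a gene's share of the UMIs of all nuclei of that lineage in that library, scaled as above. They are not scaled to gene length, so genes are compared with themselves across libraries and lineages and not with each other.

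The summed module was lower in both RVVO libraries than in both sham libraries in all 13 lineages and endothelial subtypes examined. Over all nuclei its level was 4527, 3119, 1289.8 and 1796 CPM. Endothelial cells (ECs), which line the vessels, had 8734, 7243, 2969 and 3905 CPM, a mean 2.32-fold lower in RVVO. Macrophages, the resident immune cells, had 7695, 7048, 3040.2 and 4242 CPM. The mean of the module was 1.74-fold (epicardial) to 2.38-fold (arterial EC) lower in RVVO. In 12 of the 13 the order of the libraries was also the same, with sham 1 highest and RVVO 1 lowest.

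**Figure D1:**
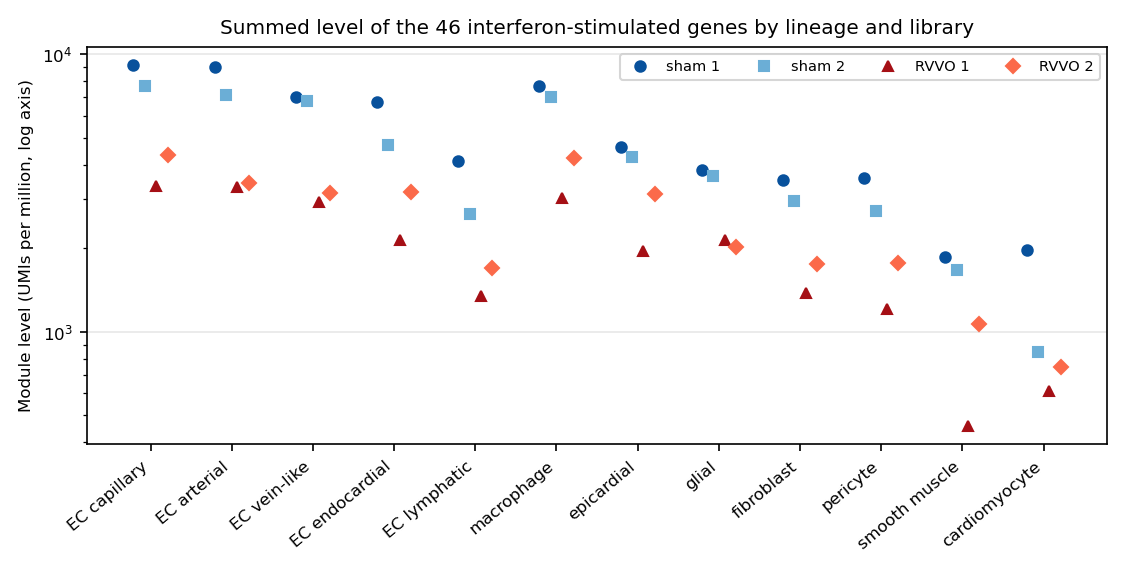
Summed level of the 46 members (vertical log axis, CPM) in each lineage and endothelial subtype, with 1 point for each library and no error bar. The 2 RVVO points lie below the 2 sham points in each lineage, and the levels run from 9154 CPM in capillary ECs of sham 1 to 457 CPM in smooth muscle of RVVO 1.

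ECs and macrophages stood at the top in each library. ECs were ahead in both sham libraries and macrophages in both RVVO libraries, so the order of these neighbours followed the group. Macrophages stood at 88.1, 97.3, 102.4 and 108.6% of the EC level, and this switch was not tested. Epicardial nuclei, from the outer mesothelial layer, and glial nuclei came next and exchanged places in RVVO 1. Epicardial nuclei had 4625, 4259, 1957 and 3139.7 CPM, and glial nuclei had 3845, 3655, 2145 and 2023 CPM. The RVVO values for glia rested on 11 and 16 nuclei and 70 and 85 module UMIs. Fibroblasts, the matrix-producing cells, had 3527, 2959, 1377 and 1757 CPM and pericytes, the mural cells of capillaries, had 3581, 2719, 1206 and 1775 CPM. These lineages exchanged places between libraries and did not differ beyond their spread. Smooth muscle nuclei had 1864, 1668, 457 and 1068 CPM, the third value from 14 nuclei. Cardiomyocytes (CMs) had 1977, 846, 609.8 and 749.7 CPM, and CM and smooth muscle nuclei were the lowest lineages in every library. Pericytes and smooth muscle summed as mural nuclei had 3382, 2575, 1175 and 1697 CPM.

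Among the endothelial subtypes, capillary ECs had the highest level in each library and lymphatic ECs the lowest. Capillary ECs, the largest subtype (2837, 2905, 1235 and 1428 nuclei), had 9154, 7701, 3344 and 4328 CPM. Arterial ECs (177, 189, 57 and 75 nuclei) had 8989.9, 7135, 3314 and 3453 CPM, close to capillary ECs in sham 1 and in RVVO 1. Vein-like ECs had 7033, 6809.6, 2927 and 3154 CPM from 15 to 31 nuclei a library. In the library with the lowest ratio, their own markers were only 1.25 times higher than in the next subtype, so the label is weak. For capillary ECs this ratio was 1.31 at its lowest. Capillary ECs also took in ECs that met the full marker rule of no subtype but held some UMIs of the capillary markers. Endocardial ECs, which line the chamber, had 6723, 4713, 2147 and 3189 CPM and the widest gap between the sham libraries of the subtypes apart from lymphatic ECs. Lymphatic ECs (69, 57, 67 and 48 nuclei) had 4134, 2658, 1344 and 1698 CPM. The log2 ratio of RVVO to sham means was -1.14, -1.25, -1.19, -1.10 and -1.16 in this order of subtypes, and these ratios were not tested against each other.

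The share of nuclei with at least 2 module UMIs was compared at an equal depth of 1000 UMIs per nucleus, because RVVO nuclei were deeper. It was computed as the expected share after drawing 1000 UMIs from each nucleus and left out nuclei below that depth, so that 3314 of 3425, 3324 of 3686, 1689 of 1694 and 2056 of 2056 EC nuclei entered. In ECs the share was 97.8%, 95.04%, 68.9% and 80.8%. In macrophages it was 96.7%, 96.7%, 73.9% and 85.5%, in epicardial nuclei 84.4%, 80.7%, 51.9% and 71.03% and in glia 85.3%, 74.6%, 42.9% and 50.5%. Nearly every EC and macrophage nucleus of the sham hearts thus carried the module at this depth, and the difference of the group means, RVVO minus sham, was -21.6 and -17.0 percentage points. At the full depth of each nucleus the share was 99.4%, 98.2%, 95.3% and 97.3% in ECs and 99.4%, 98.3%, 98.7% and 98.7% in macrophages, where it is near its ceiling.

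The lower lineages covered a wider range. Fibroblasts had 75.01%, 67.8%, 34.8% and 45.1%, pericytes had 74.1%, 64.9%, 29.4% and 45.96% and smooth muscle had 44.5%, 40.8%, 9.19% and 23.6%. CM nuclei had 53.7%, 21.3%, 11.2% and 15.9%, with sham 1 far above the other libraries. Of the CM nuclei, 3273 of 4197, 3175 of 4132, 3168 of 3189 and 4804 of 4804 reached 1000 UMIs and entered. Many more CM nuclei were thus left out in sham than in RVVO, so the CM shares compare differently selected nuclei. No lineage here is known to lack these genes, so no share served as a floor for free RNA. Among the endothelial subtypes the share was lowest in lymphatic ECs in each library, and the shares were 98.7%, 96.5%, 73.7% and 85.7% in capillary, 98.6%, 94.4%, 70.8% and 75.4% in arterial, 94.7%, 83.2%, 52.5% and 72.4% in endocardial, 93.9%, 92.2%, 78.4% and 73.9% in vein-like and 71.4%, 65.4%, 34.7% and 43.4% in lymphatic ECs.

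Counting only the 19 strongly inducible members gave lower shares. For all members the sham shares of ECs and macrophages were near their ceiling at this depth too. The relative gaps of the 2 lists are therefore not compared. The share of ECs with at least 2 such UMIs at 1000 UMIs was 59.5%, 44.7%, 13.97% and 15.4%. In macrophages it was 51.3%, 45.3%, 14.1% and 20.5%, and in epicardial nuclei 34.7%, 30.96%, 11.9% and 20.2%. Fibroblasts had 17.8%, 13.96%, 3.86% and 4.98%, pericytes 16.2%, 9.33%, 2.30% and 3.86% and CMs 6.78%, 2.32%, 1.17% and 0.712%. Glia were the exception to a clear gap, with 18.8%, 25.01%, 16.04% and 7.72%.

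**Figure D2:**
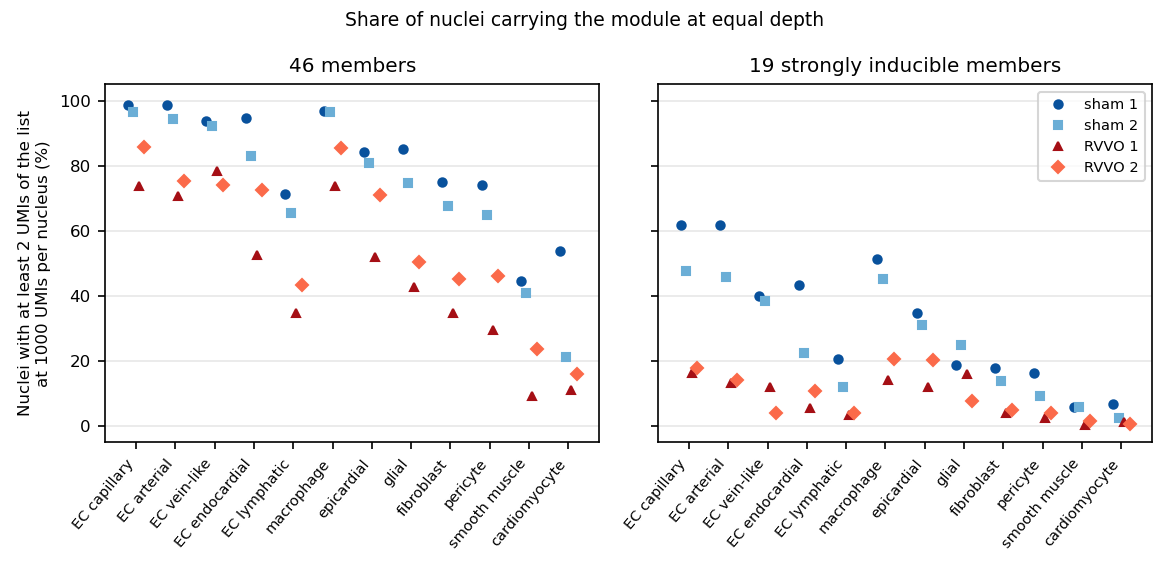
Percent of nuclei with at least 2 UMIs of the list (vertical axis) after scaling each nucleus to 1000 UMIs, for all 46 members (left) and the 19 strongly inducible members (right), by lineage, with 1 point for each library. In ECs of the capillary kind the inducible list was carried by 61.8% and 47.5% of sham nuclei and 16.3% and 17.9% of RVVO nuclei.

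The chains of the type I interferon receptor were the members with the least difference between the groups in ECs. In ECs Ifnar1 had 37.5, 45.3, 41.2 and 46.5 CPM and Ifnar2 had 80.03, 81.9, 76.03 and 84.8 CPM, and the groups overlapped for both. Their log2 fold changes in ECs were -0.02 and -0.11. The subtypes varied around this. In arterial ECs both chains were lower in both RVVO libraries, as were 17% of all genes tested there. The log2 fold changes of the chains were -0.93 and -0.60, and neither was called. In endocardial ECs 1 chain was higher in both RVVO libraries (0.49), also without a call. In macrophages Ifnar1 had 74.6, 82.5, 100.05 and 93.6 CPM and in pericytes 26.2, 24.5, 33.2 and 38.8 CPM, with both RVVO libraries above both sham libraries. In CMs Ifnar1 had 17.7, 17.3, 21.8 and 21.5 CPM and Ifnar2 had 23.3, 18.04, 24.2 and 24.5 CPM, again with the RVVO libraries above. None of these higher values passed edgeR's quasi-likelihood test in any lineage.

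All 5 transcription factors were lower in both RVVO libraries in ECs, as were 11.4% of all genes tested there. Irf7, which drives interferon production and is itself induced by interferon, had 56.02, 41.2, 11.2 and 12.8 CPM in ECs (log2 fold change -2.13 (SE 0.21)). Stat2 had 318, 329.7, 109 and 179.8 CPM and Irf9, its partner in the ISRE-binding complex, had 77.7, 88.6, 42.7 and 57.4 CPM. Irf7 lay well below the sham range in both RVVO libraries, whereas Stat2 and Irf9 were nearer to it in RVVO 2 than in RVVO 1. Nlrc5, the activator of class I antigen presentation genes, had 179.7, 145, 36.5 and 66.7 CPM in ECs, 259.7, 239, 54.3 and 153 CPM in macrophages and 150.2, 69.9, 31.9 and 53.2 CPM in CMs. Irf1, the factor most tied to interferon gamma, had 149, 109.8, 51.97 and 100.5 CPM in ECs, with RVVO 2 only a little below sham 2. In fibroblasts Irf1 had 39.1, 36.8, 19.6 and 48.1 CPM, with RVVO 2 above both sham libraries.

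In the Isg15 system, Herc6 is the mouse ligase that couples the ubiquitin-like protein Isg15 to its targets, and Usp18 removes it and restrains the receptor. Herc6 had 788, 632, 185 and 201 CPM in ECs, 611, 446, 164 and 199 CPM in macrophages and 219, 181, 74.97 and 90.3 CPM in fibroblasts. Isg15 had 49.1, 35.4, 11.02 and 13.4 CPM in ECs and 19.8, 20.1, 3.24 and 5.54 CPM in pericytes. In all of these both RVVO libraries were below both sham libraries, and for Isg15 in pericytes RVVO 2 was 1.71 times as high as RVVO 1. That ratio rests on only a few Isg15 UMIs in each of these RVVO libraries. Usp18 had 67.1, 57.1, 26.5 and 20.7 CPM in ECs and 92.1, 52.2, 28.5 and 31.9 CPM in macrophages. The log2 fold changes of Herc6, Isg15 and Usp18 in ECs were -1.98, -1.90 and -1.49.

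Of the oligoadenylate synthetase family, Oas2 and Oas1a sense double-stranded RNA and make the messenger that activates an RNA-degrading enzyme. Oas2 had 69.3, 57.3, 19.2 and 16.5 CPM in ECs and 223, 287, 131 and 136 CPM in macrophages, where its level was higher than in ECs in each library. Oas1a had 25.3, 20.3, 7.45 and 6.30 CPM in ECs and 61.05, 70.6, 36.2 and 28.7 CPM in macrophages. Both were thus more abundant in macrophages in each library and lower in both RVVO libraries of either lineage. Oasl1, which restrains Irf7 translation, had 29.8, 22.3, 6.73 and 5.49 CPM in ECs. Oasl2 had 204, 156, 49.97 and 66.7 CPM in ECs and 120.5, 103, 35.98 and 41.4 CPM in fibroblasts. In epicardial nuclei Oasl2 had 453, 434, 315 and 395 CPM, the highest level of the 6 major lineages in every library, and its log2 fold change there was -0.29 (SE 0.24) against -1.73 (SE 0.20) in ECs.

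Among the sensors, Ifih1 and Ddx58 are the cytosolic receptors of viral RNA, and Dhx58 regulates them. Ifih1 had 158, 126, 72.02 and 63.98 CPM in ECs and Ddx58 had 157, 139.97, 86.3 and 90.6 CPM. Dhx58 had 9.87, 7.57, 3.44 and 1.45 CPM in ECs and 27.1, 35.7, 8.62 and 9.20 CPM in macrophages. Eif2ak2, the kinase that stops translation on double-stranded RNA, had 138, 131, 58.8 and 56.1 CPM in ECs, 202, 202, 89.7 and 108 CPM in macrophages and 84.95, 85.6, 45.9 and 39.8 CPM in fibroblasts. For Eif2ak2 in ECs the ratio of sham 1 to sham 2 was 1.06 and that of RVVO 2 to RVVO 1 was 0.953, so the libraries of a group were close. Adar, which edits adenosine in double-stranded RNA, had 80.5, 73.3, 48.2 and 47.3 CPM in ECs, one of the smaller gaps among the members. Zbp1, a sensor of Z-form nucleic acid, had 23.1, 18.6, 0.716 and 7.59 CPM in ECs, and RVVO 1 lay 10.6 times below RVVO 2. The RVVO 1 value rests on only a few UMIs.

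Among the antiviral effectors, the Ifit proteins bind foreign RNA and block its translation. Ifit1 had 69.9, 68.9, 14.5 and 17.1 CPM in ECs, Ifit2 had 102, 69.9, 25.8 and 22.9 CPM and Ifit3 had 51.9, 31.8, 8.59 and 8.72 CPM. Ifit1 had 29.7, 20.2, 7.84 and 6.55 CPM in fibroblasts, 40.7, 28.4, 3.45 and 8.12 CPM in macrophages and 11.1, 8.99, 3.11 and 3.05 CPM in CMs. RVVO values of Ifit1 were below every sham value in each of these lineages. Bst2, the tether that holds budding virus at the membrane, had 258, 216, 56.8 and 78.8 CPM in ECs, 102, 103, 28.9 and 34.6 CPM in epicardial nuclei and 148, 89.3, 28.3 and 42.1 CPM in pericytes. Rsad2 makes a chain-terminating nucleotide that stops viral polymerases, and its neighbour Cmpk2 is a nucleotide kinase. Rsad2 had 294, 155, 78.5 and 81.1 CPM in ECs and 109, 32.99, 22.4 and 24.9 CPM in macrophages, and Cmpk2 had 53.7, 31.5, 17.5 and 16.6 CPM in ECs and 38.8, 11.9, 12.1 and 10.3 CPM in macrophages. For both neighbours sham 1 stood apart from sham 2, and in macrophages sham 2 was near the RVVO values. Rtp4 had 81.3, 62.5, 27.1 and 36.03 CPM in ECs. Samd9l, a growth-restraining antiviral factor, had 210.04, 191, 114 and 131 CPM in ECs and 154, 148, 100.05 and 115 CPM in macrophages.

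The guanylate-binding proteins are large GTPases that coat intracellular pathogens and respond strongly to interferon gamma as well. Gbp2 had 291, 173, 34.2 and 120.4 CPM in ECs, Gbp3 had 269.8, 172, 50.1 and 97.1 CPM and Gbp7 had 619, 503, 122 and 322 CPM. RVVO 1 was far below all other libraries, and RVVO 2 lay between it and sham. In macrophages Gbp3 had 87.2, 43.1, 20.7 and 48.7 CPM, where RVVO 2 was above sham 2, and in pericytes Gbp2 had 87.7, 38.4, 8.10 and 43.2 CPM, where it was above sham 2 as well. In CMs Gbp7 had 252, 65.9, 19.3 and 49.1 CPM.

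In antigen processing, Psmb8 and Psmb9 are catalytic subunits of the immunoproteasome, and Tap1 carries the peptides to class I molecules. In ECs Psmb8 had 98.6, 89.2, 26.3 and 55.7 CPM, Psmb9 had 91.6, 74.4, 27.2 and 42.8 CPM and Tap1 had 161, 121, 31.4 and 79.01 CPM. RVVO 1 was again the lowest library, with RVVO 2 between it and the sham libraries. In fibroblasts Tap1 had 56.2, 33.01, 9.46 and 29.8 CPM, and in pericytes Psmb8 had 59.4, 42.2, 4.86 and 27.7 CPM.

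Of the ubiquitin ligases and their partners, Parp9 and Dtx3l form a complex that modifies histones and viral proteins. In ECs Parp9 had 212, 167, 72.2 and 111 CPM and Dtx3l had 90.99, 74.8, 35.1 and 47.8 CPM. Parp14, an ADP-ribosyltransferase, had 553, 478, 174 and 259 CPM in ECs and 696, 654, 230.3 and 365 CPM in macrophages. Rnf213, a giant ligase whose human gene is linked to moyamoya disease of the cerebral arteries, had 642, 518, 212 and 246 CPM in ECs and 734, 771, 249 and 350.1 CPM in macrophages. In epicardial nuclei Rnf213 had 563, 710.3, 292 and 431 CPM and in fibroblasts 367, 342, 130.1 and 165 CPM. Rnf213 was below both sham values in both RVVO libraries in each of these 4 lineages. Trim30a had 372, 311, 123 and 137 CPM in ECs and 512, 508, 235 and 285 CPM in macrophages. Trim25, the ligase that activates the product of Ddx58, had 276, 314, 195 and 205 CPM in ECs, and in CMs its groups overlapped with 33.1, 22.3, 30.4 and 25.4 CPM.

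Of the remaining members, Ifi44 had 154, 99.3, 34.9 and 29.6 CPM in ECs and Phf11d had 139, 109, 46.96 and 51.4 CPM. Xaf1, which counters an inhibitor of apoptosis, had 134, 121, 59.8 and 68.8 CPM in ECs, and Sp100, a component of nuclear bodies, had 678, 652, 350.1 and 388 CPM. Ifi35 had 109, 94.1, 56.4 and 63.5 CPM in ECs and 66.9, 68.3, 43.1 and 48.5 CPM in fibroblasts. These 5 were lower in both RVVO libraries of ECs, as were 11.4% of all genes tested there. Ifi27 was the exception, with 25.98, 28.8, 32.1 and 42.5 CPM in ECs, so that both RVVO libraries were above both sham libraries. In pericytes, the lineage with its highest sham mean, Ifi27 had 77.1, 76.1, 46.2 and 52.1 CPM and was lower in both RVVO libraries. In the arterial subtype of ECs all 6 of these genes, Ifi27 among them, were lower in both RVVO libraries. Of all 6024 genes tested there, 17% were lower in both.

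**Figure D3:**
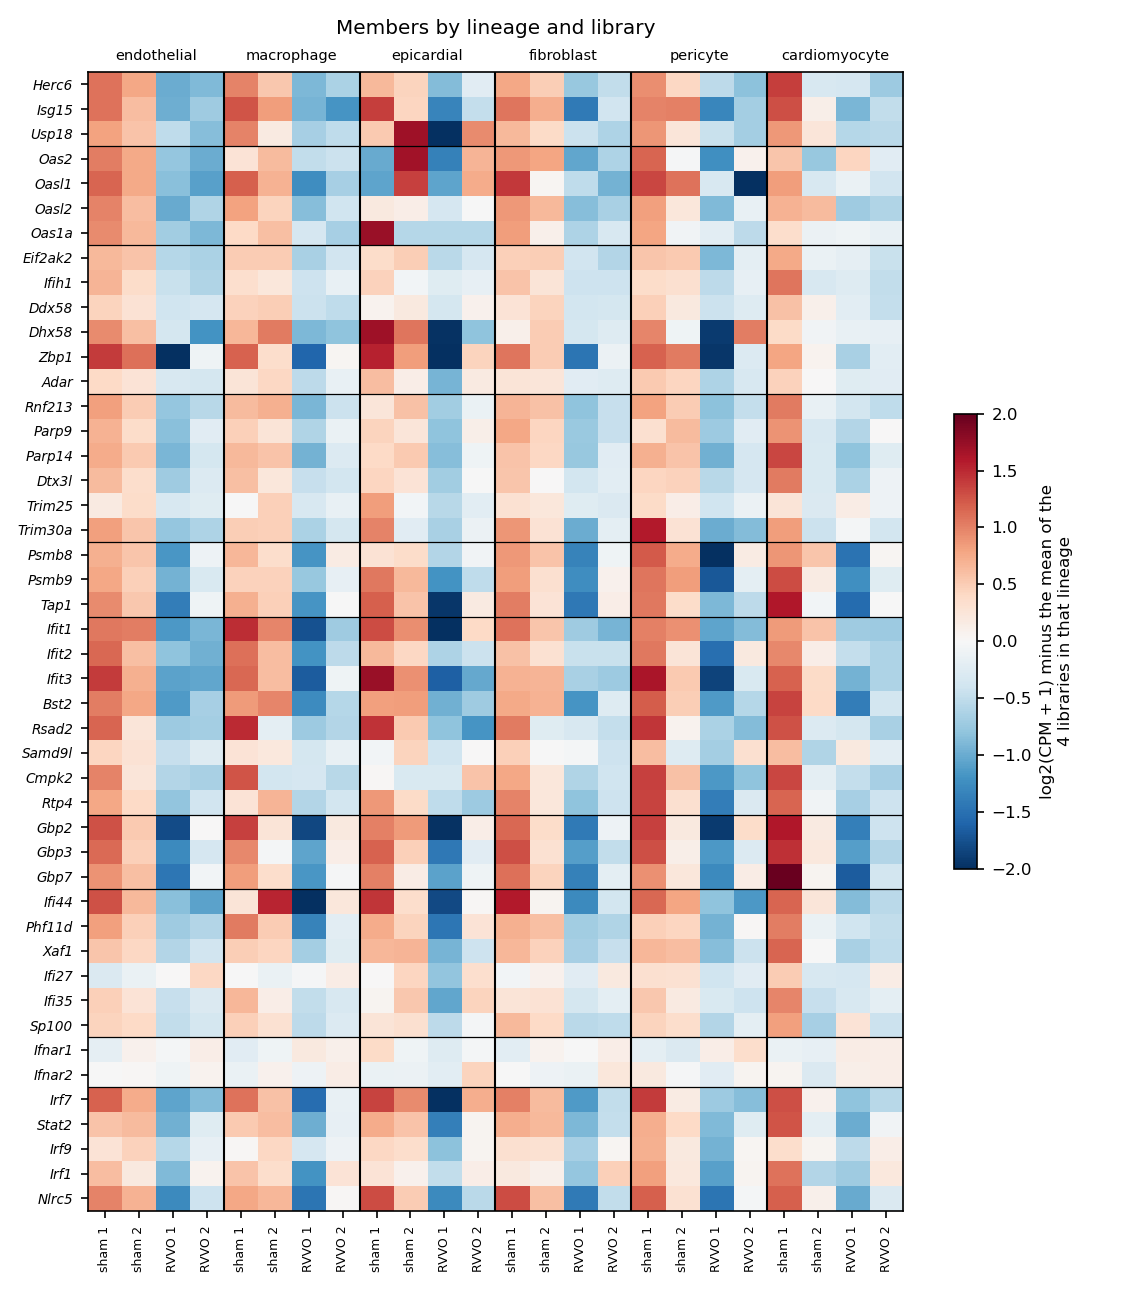
Each row is a member, grouped by role with black lines, and each column a library within 1 of 6 lineages. The colour is log2(CPM + 1) minus the mean of the 4 libraries of that lineage, red above and blue below. Most rows are red in sham and blue in RVVO, Ifnar1, Ifnar2 and Ifi27 are exceptions in ECs, and sham 1 is the reddest column in CMs.

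Counted over the list, 43 of 46 members were lower in both RVVO libraries of ECs, against 11.4% of all 13725 genes tested there. The count was 41 in macrophages (all genes 16.3%), 42 in fibroblasts (13.1%), 40 in pericytes (14.7%), 32 in epicardial nuclei (16.7%) and 27 in CMs (8.94%). The members were chosen on this contrast, so nothing is read from these shares. The median log2 fold change of the members tested was -1.44 in ECs, -1.07 in macrophages, -1.20 in fibroblasts, -1.28 in pericytes, -0.80 in epicardial nuclei and -1.32 in CMs, while the median of all genes tested lay between -0.02 and 0.01. The number of members that passed the filter on low counts was 46 in ECs, macrophages, fibroblasts and CMs, 42 in pericytes and 38 in epicardial nuclei.

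By edgeR's quasi-likelihood test with Benjamini-Hochberg adjustment over all genes, 7 members passed an adjusted p of 0.05 in ECs, all lower in RVVO, and 0.0656% of all genes did so. They were Ifit1 (log2 fold change -2.24 (SE 0.14), edgeR adjusted p = 0.00483), Herc6 (-1.98 (SE 0.16), edgeR adjusted p = 0.0154), Oas2 and Eif2ak2 (edgeR adjusted p = 0.0292 for both), and Bst2, Trim30a and Irf7 (edgeR adjusted p = 0.0358 for each). In fibroblasts Oasl2 passed (-1.56 (SE 0.16), edgeR adjusted p = 0.0350), where 0.0229% of all genes were called lower. No member was called lower by edgeR in macrophages (all genes 0.0196%), pericytes (0.0194%), epicardial nuclei (0.0257%) or CMs (0.013%). None was called higher in any lineage, where 0.0437%, 0.0588%, 0.0382%, 0.0485%, 0.103% and 0.0326% of all genes were called higher in ECs, macrophages, fibroblasts, pericytes, epicardial nuclei and CMs. At an unadjusted edgeR p under 0.05, 43 members were lower in ECs (5.23% of all genes), 38 in macrophages (3.37%), 39 in fibroblasts (2.19%), 39 in pericytes (2.26%), 18 in epicardial nuclei (1.27%) and 27 in CMs (2.39%). DESeq2 called 38, 5, 15, 3, 0 and 10 members lower in the same order of lineages, against 0.804%, 0.0667%, 0.151%, 0.0566%, 0.012% and 0.156% of all genes. Leaving out a library leaves 1 library in its arm, which is then assumed to vary like the other group. In ECs 8 members were called lower without sham 1, 20 without sham 2, 0 without RVVO 1 and 2 without RVVO 2, of 18, 32, 2 and 4 genes called lower in all. The fibroblast call was lost without either RVVO library.

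**Figure D4:**
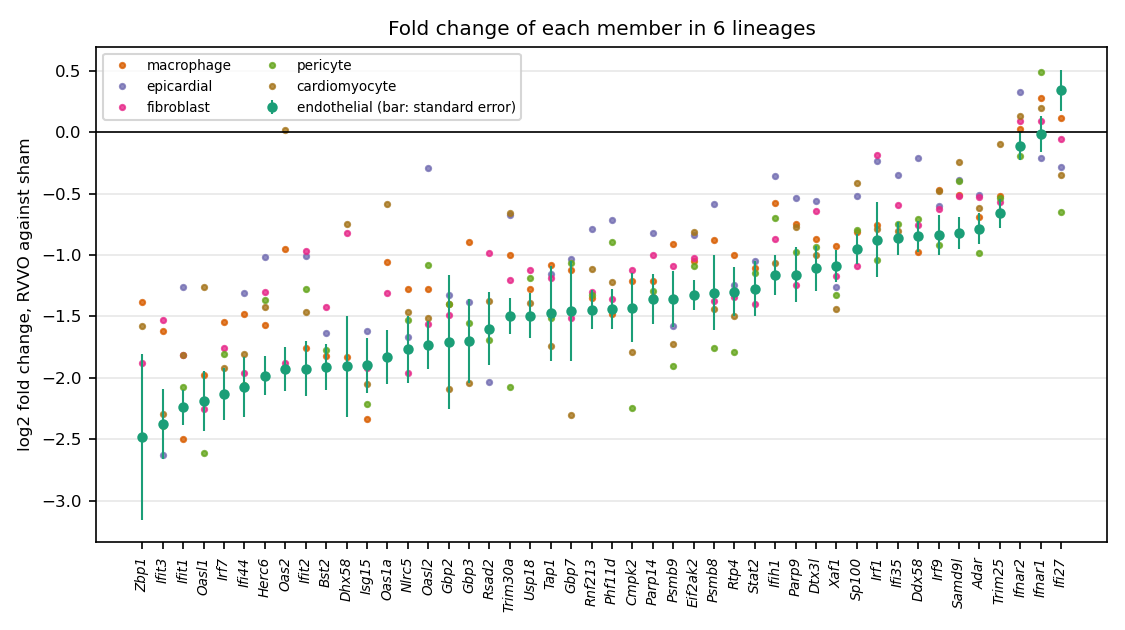
Log2 fold change of each member (vertical axis, RVVO against sham, edgeR), ordered by its value in ECs, with 1 point for each of 6 lineages and the standard error drawn for ECs. Values in ECs run from -2.48 for Zbp1 to 0.34 for Ifi27, and Ifnar1, Ifnar2 and Ifi27 lie near or above 0.

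In capillary ECs, 17 members passed edgeR, all lower, where 0.162% of all genes were called lower. These held the 7 members called in all ECs and also Ifit2, Ifit3, Ifi44, Oasl1, Oasl2, Isg15, Phf11d, Rnf213, Usp18 and Xaf1. Herc6 had 813, 674, 206 and 216 CPM in capillary ECs (log2 fold change -1.91 (SE 0.16), edgeR adjusted p = 0.00582). In arterial ECs, Herc6, Parp14, Bst2, Oasl2, Nlrc5 and Rnf213 passed, against 0.216% of all genes. Herc6 had 973, 695, 224 and 253 CPM there and Nlrc5 had 219.9, 168, 51.4 and 56.6 CPM. In lymphatic ECs 21 members passed the filter and 0.126% of all genes were called lower. Rnf213 (482, 398, 84.5 and 127 CPM) and Parp14 (237, 151, 35.4 and 54.6 CPM) passed edgeR there. All members summed had only 493 and 280 UMIs in RVVO 1 and RVVO 2 of this subtype, so these values rest on few UMIs. Endocardial ECs had 0 calls by edgeR, with 0.0218% of all genes called lower, and 35 members were lower at an unadjusted p under 0.05 (2.58% of all genes). No member was called higher in capillary, arterial, endocardial or lymphatic ECs (0.0542%, 0.149%, 0.0653% and 0.0632% of all genes). DESeq2 was not run on the subtypes, and smooth muscle, glia and vein-like ECs had under 20 nuclei in a library and were not fitted.

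Members differed in the lineage in which they were most abundant. By the sham mean, 28 members were highest in ECs, 16 in macrophages, Oasl2 in epicardial nuclei and Ifi27 in pericytes. For 15 of the 28 and 13 of the 16 the lineage was the same in every library. Rsad2 illustrates the endothelial set, with 294, 155, 78.5 and 81.1 CPM in ECs and 43.6, 17.3, 16.4 and 14.6 CPM in fibroblasts. Oas2 stood for the macrophage set, with 223, 287, 131 and 136 CPM in macrophages and 14.9, 13.9, 3.23 and 4.62 CPM in fibroblasts.

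Of the 13 lineages and subtypes, CM nuclei had the largest ratio of the module between the sham libraries. All 46 members were higher in sham 1 than in sham 2, and the module was 2.34 times higher. The same count over all genes was not made. Without sham 1 the log2 ratio of the module was -0.31 and the median log2 fold change of the members was -0.42, against -1.05 and -1.32 with it. CM nuclei close to the threshold of the marker rule made up 12.3%, 7.16%, 3.45% and 1.48% of the CM nuclei. Endothelial markers (10 genes, none at 0) in CM nuclei stood at 469, 219.6, 550.1 and 299 CPM, 6.71, 2.71, 7.44 and 4.33% of their level in ECs. The module in CMs was at 22.6, 11.7, 20.5 and 19.2% of its EC level. The part of free or admixed RNA in the CM values was not tested.

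The same comparison was made in the other major lineages. In pericytes the endothelial markers were at 14.7, 6.56, 7.13 and 9.57% of their EC level and the module at 41.0, 37.5, 40.6 and 45.5% of its EC level. In fibroblasts the endothelial markers were at 11.99, 6.71, 7.78 and 8.01% and the module at 40.4, 40.9, 46.4 and 45.0%. Macrophages had the endothelial markers at 14.9, 7.92, 14.9 and 9.85% and the module at 88.1, 97.3, 102.4 and 108.6% of the EC level. Epicardial nuclei had the endothelial markers at 12.8, 6.41, 11.6 and 8.40% and the module at 53.0, 58.8, 65.9 and 80.4%. The part of endothelial RNA in the module values of these lineages was not tested. Macrophage markers (14 genes, none at 0) in ECs were at 3.84, 3.64, 3.66 and 5.17% of their macrophage level, highest in RVVO 2. CM markers (12 genes, none at 0) in ECs were at 23.1, 16.5, 21.3 and 18.7% of their CM level. T or NK cell markers (10 genes, 1 at 0) were at 10.7 to 13.3 CPM in ECs. The part of these cells in the module values was not tested.

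The 2 libraries of a group did not differ alike for all roles. RVVO 2 exceeded RVVO 1 most in the guanylate-binding proteins, where the ratio of their summed CPM was 2.15 to 2.83 over the 6 lineages, and in antigen processing (2.07 to 2.93), followed by the transcription factors (1.61 to 2.24). For the Isg15 system the ratio was 0.838 to 1.70, for the oligoadenylate synthetases 0.886 to 1.58 and for the sensors 0.897 to 1.35. In ECs the ratio was 10.6 for Zbp1, 3.52 for Gbp2, 2.64 for Gbp7, 2.52 for Tap1 and 1.93 for Irf1, against 1.02 for Ifit3, 0.859 for Oas2 and 0.781 for Usp18. Zbp1 had only a few UMIs in RVVO 1, so its ratio is uncertain. Between the sham libraries the largest EC ratios of sham 1 to sham 2 were 1.90 for Rsad2, 1.70 for Cmpk2 and 1.69 for Gbp2. With 1 library on each side these ratios have no test.

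**Figure D5:**
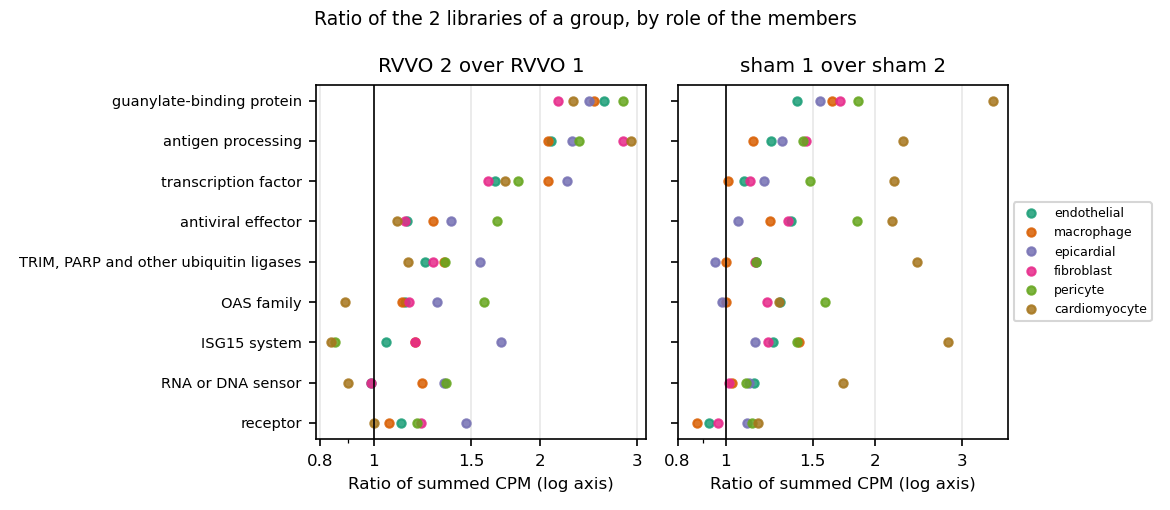
Ratio of the 2 libraries of a group (horizontal log axis, summed CPM of the members of a role), RVVO 2 over RVVO 1 on the left and sham 1 over sham 2 on the right, with 1 point for each of 6 lineages. Guanylate-binding proteins and antigen processing lie between 2.07 and 2.93 on the left, and CMs lie farthest right on the right for each role but the oligoadenylate synthetases.

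The wider pathway was described with a list of 140 further genes, of which 132 were found. In ECs 110 were tested by edgeR and 0 were called in either direction, where 0.0656% of all genes were called lower and 0.0437% higher. At an unadjusted edgeR p under 0.05, 68 were lower and 4 were higher. Of all 13725 genes, 1659 passed this limit in either direction, and 718 of them (5.23%) were lower. DESeq2 called 35 of the list lower, against 0.804% of all genes. The list was chosen with earlier results of these data known, so nothing is read from these counts. The median log2 fold change was -0.91 in ECs, -0.72 in macrophages, -0.53 in fibroblasts, -0.65 in pericytes, -0.38 in epicardial nuclei and -0.47 in CMs. In none of these lineages was a gene of the list called by edgeR. Cd274, the ligand of the checkpoint receptor PD-1, had 269, 179, 28.1 and 88.7 CPM in all ECs and 252, 168, 65.4 and 60.96 CPM in arterial ECs (log2 fold change -1.77, edgeR adjusted p = 0.0370). Ddx60, an antiviral helicase, had 156, 151, 32.7 and 12.1 CPM in lymphatic ECs (log2 fold change -2.56, edgeR adjusted p = 0.0170). Its RVVO 2 value rests on only a few UMIs.

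In ECs the receptors and regulators of the list stood nearer to the median of all genes than its induced genes. The median log2 fold change was -0.13 for the 4 other receptor genes and -0.13 for the 8 kinases or regulators, but -1.11 for the 81 other interferon-stimulated genes tested. The interferons themselves were almost undetected. Of 17 ligand genes, 13 had no UMI in any kept nucleus, and the other 4 had 23 UMIs in all, 17 of Ifnk, 3 of Ifng, 2 of Ifnab and 1 of Ifnz. At this depth neither the level nor a difference of the ligands could be measured.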

How the data were processed

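Nuclei of 4 RV libraries (2 sham, 2 RVVO) were profiled with 10x 3′ chemistry. The authors deposited UMI counts per gene and barcode. The submitters' processing notes name Cell Ranger 3.0.1, STAR, Seurat 3.0.2 and GRCm38/mm10, while the matrix headers name Cell Ranger 5.0.0. The sources used here do not say whether introns were counted. The members and gene lists were chosen with earlier results of these data known. Barcodes with at least 200 genes and at most 10% mitochondrial UMIs were kept, and the highest doublet scores from Scrublet in scanpy 1.11.5 (0.8% per 1000 barcodes) were removed. A nucleus took a lineage when its markers had at least 3 UMIs from 2 genes, 3 times the library's background (2 times for subtypes), at a Poisson p of 0.001. ECs that met this rule for no subtype were counted as capillary ECs if they held at least 3 UMIs of the capillary markers. The gene, background and Poisson limits did not apply to them. These limits were set after marker counts had been seen. UMIs were summed per library and lineage with at least 20 nuclei in each library, and tested with edgeR 4.0.16 (TMM, filterByExpr, quasi-likelihood test) on R 4.3.3. DESeq2 1.42.0 and the other settings are compared in the closing section. Members were to be given by library where their level was high, their groups did not overlap in at least 3 of 6 lineages, a call was made or they were strongly inducible with many UMIs; Ifnar2 and Ifi27 met none of these and were added after their values were seen. Pathway genes were named where called, and 1 of them is not reported here. The tests were tried on simulated data.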

Additional observations from a re-analysis of the deposited data

Results flagged for a closer look

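Ifi27 had fold changes of opposite sign in ECs and pericytes. In ECs both RVVO libraries were above both sham libraries (25.98, 28.8, 32.1 and 42.5 CPM), and in pericytes both were below (77.1, 76.1, 46.2 and 52.1 CPM). The log2 fold changes were 0.34 (SE 0.17) and -0.65 (SE 0.21), a gap of 0.99 on the log2 scale. The difference between the lineages was not tested, and neither value passed edgeR's adjusted threshold. The rise did not extend to every subtype of ECs, as Ifi27 was lower in both RVVO libraries of arterial ECs.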

How the results depend on the processing

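The direction of the module was the same under each alternative in the 6 fitted lineages, and no member was called higher under any. The number of members called lower moved with the settings, and the cause was not tested. In ECs it was 38 of 164 genes called lower in all by DESeq2, 16 of 19 with DESeq2's size factors in edgeR, 41 of 183 with all genes of 1 UMI or more, 35 of 97 after thinning to 1000 UMIs, 17 of 20 without doublet removal and 4 of 6 with stricter markers, against 7 of 9. In macrophages it was 5 of 12 by DESeq2, 26 of 100 with all genes and 2 of 5 after thinning, against 0 of 2. In fibroblasts it was 15 of 30, 34 of 137 and 4 of 6, and 4 of 6 with size factors, against 1 of 3. Pericytes had 3 of 10 by DESeq2 and 27 of 86 with all genes, epicardial nuclei 1 of 11 with all genes and CMs 10 of 34 by DESeq2, each against 0 of 2. Other pathway genes called lower, 0 in each lineage, were 35 (ECs), 2 (macrophages), 7 (fibroblasts), 4 (pericytes) and 4 (CMs) by DESeq2, 44, 26, 35, 26 and 2 (epicardial in place of CMs) with all genes, and 25 in ECs after thinning.

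The replicate numbers pair no samples in the labels, and the correlations of same-numbered deviations ran from -0.12 in pericytes to 0.21 in CMs. With the replicate block, 13 members of 16 genes in all were called lower in ECs, 15 of 32 in macrophages, 0 of 2 in fibroblasts and 2 of 5 in pericytes, with 1 other pathway gene in ECs and 6 in macrophages. The crossed pairing in pericytes, added after seeing the data, called 4 members and 9 other pathway genes lower, of 19 genes in all.

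Leaving out each library in turn gave 0 to 20 members called lower in ECs, 0 to 2 in macrophages, 0 to 10 in fibroblasts, 0 to 28 in pericytes and 0 to 2 in epicardial nuclei. Pericytes had 9 of 33 genes called lower in all without sham 1, 28 of 109 without sham 2 and 9 of 24 without RVVO 2, and fibroblasts 10 of 21 without sham 2. Other pathway genes ranged over 0 to 5 (ECs), 0 to 4 (fibroblasts), 0 to 29 (pericytes) and 0 to 4 (epicardial). The median log2 fold change ranged from -1.68 to -0.42 in CMs, -1.22 to -0.58 in epicardial nuclei, -1.53 to -0.86 in macrophages and -1.57 to -0.90 in pericytes. The module ratio ranged from -1.54 to -0.31 in CMs, -1.18 to -0.50 in epicardial nuclei and -1.28 to -0.80 in macrophages. Ifnar1 in ECs changed sign, to 0.037 after thinning and 0.017 without doublet removal, and ran from -0.13 to 0.093 with a library left out (0.093 without sham 2 and 0.042 without RVVO 1).

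Counting the strongly inducible members alone gave module ratios of -1.67 in ECs, -1.35 in macrophages, -1.34 in fibroblasts and -1.44 in pericytes. It gave share differences of -37.4 percentage points in ECs, -31.0 in macrophages, -11.4 in fibroblasts, -9.69 in pericytes and -3.61 in CMs. At 2000 UMIs the share difference for all members was -6.15 in ECs, -3.84 in macrophages, -22.6 in fibroblasts and -9.65 in epicardial nuclei. Without equal depth it was -2.50, -0.139, -8.59, -9.83 in pericytes and -2.60 in epicardial nuclei. With at least 1 UMI it was -7.62, -5.65, -19.5, -19.4 in pericytes and -9.79 in epicardial nuclei. With 2 libraries a group and sex confounded with surgery, depth, sex and surgery effects cannot be told apart.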

Other observations

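Nuclei that took no lineage also carried the module. Nuclei with markers of more than 1 lineage had 6114, 4616, 1967 and 3216 CPM, and nuclei without enough marker UMIs had 5678, 4168, 1684 and 2306 CPM, in the order sham 1, sham 2, RVVO 1 and RVVO 2. The unassigned nuclei numbered 634, 671, 44 and 90, so the RVVO values rested on few nuclei.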
